A study of Homo sapiens with 12 samples.

Results

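Cells exposed for 28 days to 17β-estradiol (E2) were set against cells exposed for the same time to bisphenol A (BPA) at 0.25 nM or 2500 nM. The 2 E2 libraries with a file, E2 replicates 1 and 2, were compared with the 6 BPA libraries of both doses pooled, and with the 3 libraries of each dose alone. These were 8 of the 11 libraries with a file; the other 3 were of cells kept in 0.1% DMSO and serve as a reference only. The labels list 12 samples in all, and the third E2 sample was not analysed here. Every library came from IOSE80, an immortalised cell line labelled as normal human ovarian epithelium, so that the groups share 1 line and 1 background, and nothing in the labels says that the replicates were separate cultures. The p-values therefore measure the spread between these libraries, which may be technical. No dose of E2 is stated in these sources, so E2 and BPA could not be matched by dose.

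E2 is the main steroid oestrogen of the ovary. It acts by binding nuclear receptors, ESR1 and ESR2, which then bind DNA at oestrogen response elements and change the transcription of nearby genes, and it also signals through the membrane receptor GPER1. BPA is a plastics monomer with a pair of phenol rings in place of the steroid skeleton, and is known as a weak ligand of the same nuclear receptors that can also engage other nuclear and membrane receptors.

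Expression was given as FPKM, fragments scaled by transcript length and library size, for 30574 loci assembled from the reads. A locus entered the tests if it reached an FPKM of 1 in at least 2 of the 8 E2 and BPA libraries, which 11950 loci did. Of these, 9389 name a single protein-coding gene, 615 join several and 1946 name none. Differences are given as log2 differences of FPKM + 1, E2 minus BPA, which understate the change of low genes. They come from limma fitted over all 11 libraries, with a Benjamini-Hochberg adjusted p under 0.05 over all loci tested as the call.

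The cells carried the markers of the label only in part. Of 15 ovarian surface markers, 5 passed the filter in the E2 and BPA libraries, among them ALDH1A1, KRT18 and NR2F1. The summed FPKM of all 15 was 157 to 159 in E2, 137 to 158 in BPA and 151 to 167 in DMSO libraries, most of it ALDH1A1. WT1, GATA4, BNC1 and LRRN4 stood at 0 in both E2 libraries and at no more than 0.02 FPKM in any BPA library, and the oviduct markers PAX8 and CDH1 at no more than 0.03 FPKM in E2 or BPA libraries. The fibroblast list summed to 716 to 828.7 FPKM in E2 and 709 to 911 FPKM in BPA libraries, most of it vimentin. Leukocyte markers summed to at most 0.08 FPKM in E2 and 0.05 FPKM in BPA libraries. Of 8 granulosa markers, FOXL2 and INHA passed the filter. FOXL2 had 6.69 and 5.36 FPKM in E2 and 6.62 to 7.3 FPKM in BPA libraries. EGFL7 of the endothelial list and ZP3 of the germ cell list also passed the filter.

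E2 replicate 2 stood apart from the rest of the series. Its median correlation with the other libraries was 0.976, against 0.982 for E2 replicate 1 and 0.980 to 0.982 for the BPA libraries. The median size of the log2 difference between the E2 replicates was 0.150, while pairs of libraries of one BPA dose differed by 0.0825 to 0.0965. E2 replicate 1 differed from the BPA 2500 nM libraries by 0.0831 to 0.0938, a range that overlaps the spread within that dose, and from the BPA 0.25 nM libraries by 0.0968 to 0.105. E2 replicate 2 differed by 0.140 to 0.172 from the BPA 2500 nM libraries and by 0.148 to 0.173 from the BPA 0.25 nM libraries. The spread between the E2 replicates was thus as wide as the distance from E2 replicate 2 to BPA. Loci of the mitochondrial genome took 13.1 ± 1.23% of the FPKM in E2 (SD, n = 2) and 12.6 to 13.6% in the 6 BPA libraries. The difference of means, 0.132 percentage points, had an exact two-sided permutation p of 0.786, where 28 splits allow no p below 0.0714.

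Against both BPA doses together, E2-exposed cells had more PAQR4 and less LBR, CTDSP1 and NKRF, and a short locus on the strand opposite YWHAE was found in E2 libraries alone. These 5 loci were all that passed, 0.0418% of those tested: 2 higher in E2, 0.0167%, and 3 lower, 0.0251%. The locus opposite YWHAE entered the test through the E2 libraries alone, being at 0 in all others, so that it had to differ and its call carries no weight; PAQR4 is the other one higher. At an unadjusted p under 0.05 there were 1407 loci, 11.8%, with 658 higher, 5.51%, and 749 lower, 6.27%. The median difference over all loci was 0.00 on the log2 scale, and the median interval of a single difference reached 0.19 to either side.

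**Figure D1:**
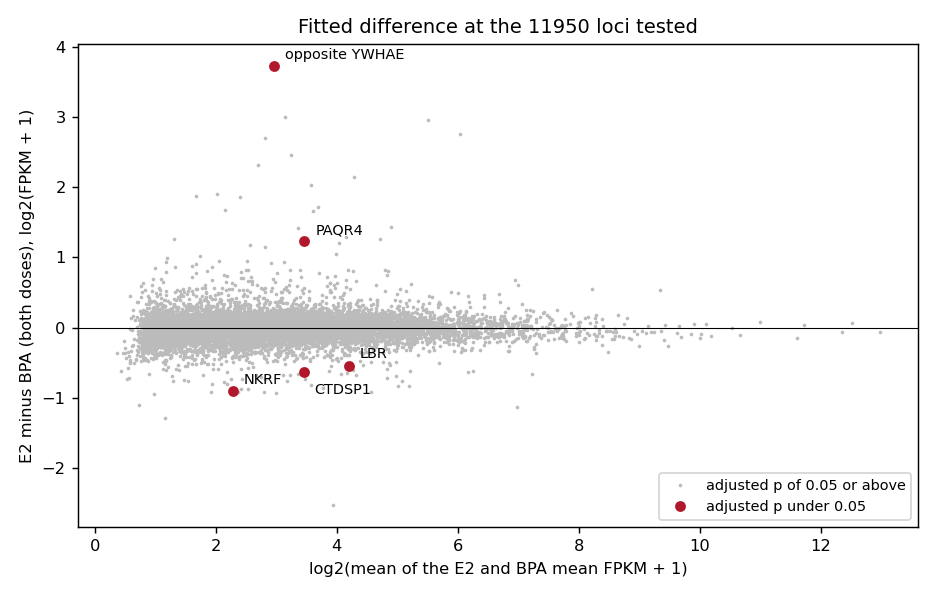
Fitted difference between E2 and both BPA doses, as E2 minus BPA in log2(FPKM + 1), against the level of the locus, as log2 of the mean FPKM + 1, for the 11950 loci tested. The 5 loci that passed are in red; PAQR4 and the locus opposite YWHAE lie above the line at 0, and LBR, CTDSP1 and NKRF below it, while many unlabelled points with large differences did not pass.

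The promoters of PAQR4, LBR and NKRF are shown because these are the single coding genes that passed whose RefSeq start falls within 103 bases of the start of the expressed locus. In each of them the RefSeq start lies inside the locus, so the end of the window is part of it, 103 bases for PAQR4. For CTDSP1 the RefSeq start lies 1456 bases upstream of that locus, and its window is left out. Each sequence is the 250 bases before the RefSeq start, on the strand of the gene and in build GRCh38.p14; capitals mark GGGCGG in either orientation, a box bound by SP1, and TGANTCA, a site of AP-1 factors, both of which are known partners of oestrogen receptors at promoters. The windows are chr16:2969098-2969347 (plus strand) for PAQR4, chr1:225428822-225429071 (minus strand) for LBR and chrX:119606425-119606674 (minus strand) for NKRF.
PAQR4: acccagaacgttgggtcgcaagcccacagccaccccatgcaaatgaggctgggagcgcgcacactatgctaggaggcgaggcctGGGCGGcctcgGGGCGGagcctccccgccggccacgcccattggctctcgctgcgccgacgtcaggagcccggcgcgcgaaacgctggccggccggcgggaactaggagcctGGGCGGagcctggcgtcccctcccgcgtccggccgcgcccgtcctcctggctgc
LBR: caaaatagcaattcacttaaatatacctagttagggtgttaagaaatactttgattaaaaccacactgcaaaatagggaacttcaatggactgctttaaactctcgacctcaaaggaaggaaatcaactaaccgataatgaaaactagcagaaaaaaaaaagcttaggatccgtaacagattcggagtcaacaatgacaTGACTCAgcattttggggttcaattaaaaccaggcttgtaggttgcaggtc
NKRF: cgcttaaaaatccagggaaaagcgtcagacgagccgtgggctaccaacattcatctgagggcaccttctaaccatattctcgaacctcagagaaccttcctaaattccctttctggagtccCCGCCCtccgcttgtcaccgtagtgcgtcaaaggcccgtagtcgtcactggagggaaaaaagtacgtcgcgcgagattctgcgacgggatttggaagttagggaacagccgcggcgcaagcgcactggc

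PAQR4 holds 3 GGGCGG boxes, NKRF 1 and LBR none, while LBR holds 1 TGANTCA site. The last of the PAQR4 boxes lies within the expressed locus and not upstream of it. Over the 7537 promoters of tested single-gene loci with such a window, 70.4% hold GGGCGG and 3.26% hold TGANTCA. The oestrogen response element GGTCANNNTGACC, searched on both strands, was in none of the 3 windows and in 1 of the 7537, 0.0133%. A single arm of it, GGTCA, which the full element contains, was in none of the 3 and in 29.8% of all. These are matches of letters in a short window and say nothing of binding elsewhere.

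PAQR4, a multi-pass membrane protein of the progestin and adipoQ receptor family, lies at chr16:2969245-2973489 on the plus strand, where 70.0% of the locus is exonic in GENCODE 29. Its level was 14.6 and 14.3 FPKM in the E2 libraries, 5.35, 5.59 and 5.99 FPKM in BPA 0.25 nM libraries, 5.81, 5.12 and 5.68 FPKM in BPA 2500 nM libraries, and 5.63, 4.34 and 5.35 FPKM in DMSO libraries. Both E2 libraries lay far above all others, and the BPA and DMSO libraries overlapped. The mean was 14.4 ± 0.198 FPKM in E2 (SD, n = 2) and 5.59 ± 0.315 FPKM in BPA (SD, n = 6), a ratio of 2.58. The log2 difference was 1.23 ± 0.0833 (SE, 95% interval 1.04 to 1.42), with a limma adjusted p of 0.000589. PKMYT1, a kinase gene that overlaps this locus on the other strand, had 7.15 and 5.66 FPKM in E2 and 5.65 to 9.20 FPKM in BPA libraries, with no separation. The call was also made with either E2 library left out, at log2 differences of 1.22 without replicate 1 and 1.24 without replicate 2.

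LBR, the lamin B receptor, is a protein of the inner nuclear membrane that tethers heterochromatin to the lamina and also carries a sterol reductase domain of cholesterol synthesis. It lies at chr1:225401502-225428855 on the minus strand. Its level was 13.7 and 14.3 FPKM in E2 libraries, 21.1, 20 and 20.6 FPKM in BPA 0.25 nM libraries, 20.8, 22.0 and 20.3 FPKM in BPA 2500 nM libraries and 22.1, 21.9 and 20.4 FPKM in DMSO libraries. The E2 libraries were the lowest of all 11, with a gap of several FPKM to the nearest BPA library. The mean in E2 was 67.3% of that in BPA, and LBR fell by 0.54 ± 0.0484 (SE) on the log2 scale, with a limma adjusted p of 0.00404. Without E2 replicate 1 the difference was -0.51, and without replicate 2 it was -0.57.

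CTDSP1, a small phosphatase that removes phosphates from the tail of RNA polymerase II and from the neuronal gene repressor REST, lies at chr2:218397807-218405941 on the plus strand. Its level was 7.09 and 8.11 FPKM in E2 libraries, 11.3, 12.2 and 12.1 FPKM in BPA 0.25 nM libraries, 13.1, 12.8 and 12.4 FPKM in BPA 2500 nM libraries, and 10.99, 10.72 and 12.04 FPKM in DMSO libraries. Again both E2 libraries lay below every other one. The mean FPKM in E2 was 61.7% of that in BPA. On the log2(FPKM + 1) scale CTDSP1 fell by 0.63 ± 0.0616 (SE), with a limma adjusted p of 0.00635. Without E2 replicate 1 the difference was -0.55, and without replicate 2 it was -0.72.

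NKRF encodes a nuclear repressor that silences NF-κB target genes. At chrX:119588337-119606443 on the minus strand it had 1.80 and 3.03 FPKM in E2 libraries, 5.18, 4.98 and 5.11 FPKM in BPA 0.25 nM libraries, 5.38, 5.78 and 5.39 FPKM in BPA 2500 nM libraries, and 5.50, 4.83 and 5.16 FPKM in DMSO libraries. The groups did not overlap, although the E2 libraries differed more from each other than the BPA libraries did. The mean FPKM in E2 was 45.5% of that in BPA. On the log2(FPKM + 1) scale NKRF fell by 0.91 ± 0.112 (SE), with a limma adjusted p of 0.0387. The call was lost when any 1 of the DMSO or BPA libraries was left out, at adjusted p of 0.0686 to 0.110, and was made without E2 replicate 1 at -0.64 and without replicate 2 at -1.17. UBE2A, which overlaps it on the other strand, had a log2 difference of -0.01.

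The remaining called locus, at chr17:1344629-1344890 on the plus strand, is 262 bases long and lies wholly within exons of YWHAE, a 14-3-3 adaptor gene that runs on the minus strand. It was listed at 7.41 and 19.8 FPKM in the E2 libraries and at 0 in all 6 BPA and all 3 DMSO libraries. The E2 libraries differed from each other by more than the smaller value, and no fold change can be given against groups listed at 0. It reached the filter through the E2 libraries alone, so its values are a description. YWHAE itself had 131 and 122 FPKM in E2 libraries and 120 to 163 FPKM in BPA libraries, with a log2 difference of -0.15. The labels do not say whether the counting used strand, so reads of the locus and of YWHAE cannot be told apart with certainty.

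**Figure D2:**
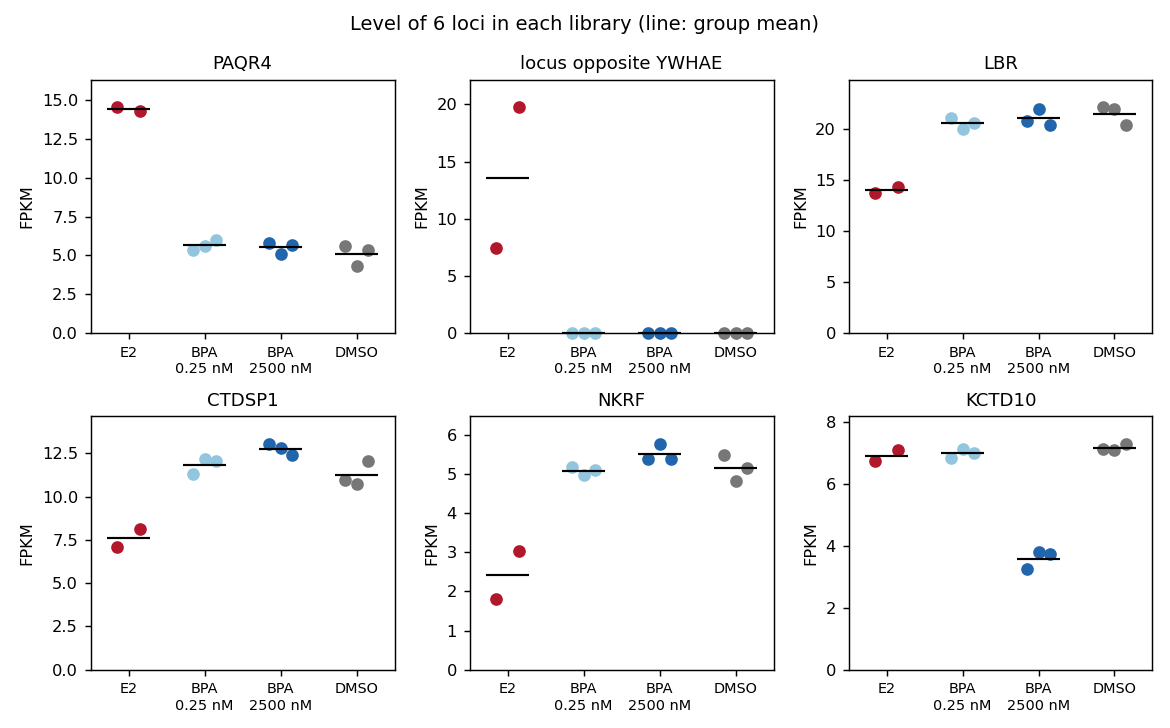
FPKM of 6 loci in each library, by group; points are libraries and lines are group means. PAQR4 lies at 14.3 to 14.6 FPKM in E2 and under 6 in the other groups, LBR, CTDSP1 and NKRF are lowest in E2, the locus opposite YWHAE is listed at 0 outside E2, and KCTD10 is low in BPA 2500 nM alone.

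Taken by p within each direction, further genes with both E2 libraries beyond all 6 BPA libraries did not pass. STRAP, a scaffold protein of the SMN complex and of TGF-β receptors, had 83.6 and 79.0 FPKM in E2 libraries, 56.5 to 68.4 FPKM in BPA libraries and 72.8 to 74.0 FPKM in DMSO libraries, with a log2 difference of 0.45 ± 0.0685 (SE) and an adjusted p of 0.129. It passed without BPA 0.25 nM replicate 3, at adjusted p = 0.00597. The E2 libraries were above all others, and here it was the BPA libraries that lay below DMSO. DDX5, an RNA helicase known as a coactivator of oestrogen receptor, had 68.0 and 64.6 FPKM in E2 and 50.5 to 57.4 FPKM in BPA libraries (log2 difference 0.30, adjusted p = 0.333). PHLDA3, a p53 target that restrains AKT signalling, had 4.62 and 6.93 FPKM in E2 and 9.53 to 11.5 FPKM in BPA libraries, a log2 difference of -0.76 ± 0.110 (SE) with an adjusted p of 0.0918. It passed when either E2 library was left out, at adjusted p = 0.0250 without replicate 1 and 0.000928 without replicate 2. LARGE2, a glycosyltransferase that extends the sugar chains of dystroglycan, had 2.52 and 2.27 FPKM in E2 and 2.87 to 3.48 FPKM in BPA libraries (log2 difference -0.32, adjusted p = 0.129, and 0.0335 without E2 replicate 1).

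Large differences were few. Only 30 of the 11950 loci differed by 1 or more on the log2 scale, 26 higher and 4 lower in E2, and 2 of them were called, PAQR4 and the locus opposite YWHAE. The filter can admit a locus through the 2 E2 libraries alone, as it did the locus opposite YWHAE, and such a locus must lie above BPA. How many loci were such was not counted, so the split by direction and the counts beyond BPA are a description. In 14 of the 30 both E2 libraries lay beyond all 6 BPA libraries, and in 8 the E2 libraries were themselves at least 1 apart. Over all loci, both E2 libraries lay above all 6 BPA libraries at 634, 5.31%, and below them at 709, 5.93%. Of these, 345 of the 634 and 405 of the 709 were also beyond all 3 DMSO libraries, and the rest were not.

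The count of calls rested on the E2 libraries in particular. It was 157 without E2 replicate 1, 25 without replicate 2 and 8 without BPA 2500 nM replicate 3; with 1 E2 library left, that library is assumed to vary like the other groups.

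E2 was then set against each dose alone, which asks whether the distance to BPA depends on its dose. The E2 libraries are the same in both comparisons and in the pooled one, so the results are not independent. PAQR4, LBR and CTDSP1 passed against each dose, while PCK2 and MT-TF passed against 0.25 nM and KCTD10 against 2500 nM. Against 0.25 nM, 6 loci were called, 0.0502% of those tested, 3 higher and 3 lower, 0.0251% each; against 2500 nM, 5 were called, 0.0418%, 3 higher, 0.0251%, and 2 lower, 0.0167%. Both counts include the locus opposite YWHAE, which the filter admitted through E2 alone. At an unadjusted p under 0.05 there were 1516 loci against 0.25 nM, 12.7%, and 1087 against 2500 nM, 9.10%.

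KCTD10, an adaptor that brings substrates to CUL3 ubiquitin ligases, had 6.73 and 7.08 FPKM in E2 libraries, 6.85, 7.13 and 7 FPKM in BPA 0.25 nM libraries, 3.25, 3.79 and 3.73 FPKM in BPA 2500 nM libraries, and 7.12, 7.09 and 7.30 FPKM in DMSO libraries. E2 overlapped with the lower dose and lay well above the higher one. The log2 difference was 0.79 ± 0.0611 (SE) against 2500 nM, with a limma adjusted p of 0.00115, and -0.02 against 0.25 nM, with a 95% interval of -0.15 to 0.12. Its pooled difference of 0.38 (adjusted p = 0.0918, and 0.0412 without E2 replicate 1) is thus a mean of unlike values.

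PCK2, the mitochondrial form of phosphoenolpyruvate carboxykinase and a target of the stress factor ATF4, had 12.7 and 11.9 FPKM in E2 libraries, 17.9, 17.8 and 18.2 FPKM in BPA 0.25 nM libraries, 14.7, 12.9 and 13.1 FPKM in BPA 2500 nM libraries, and 14.5, 14.6 and 14.8 FPKM in DMSO libraries. E2 was below every other library, and the lower BPA dose above them. PCK2 fell by 0.51 ± 0.0598 (SE) on the log2 scale against 0.25 nM, with a limma adjusted p of 0.0223; against 2500 nM the difference was -0.13, with an interval of -0.27 to 0.00. The call against 0.25 nM was lost without E2 replicate 2 or any of the 3 libraries of that dose, at adjusted p of 0.0723 to 0.0966.

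MT-TF, the mitochondrial tRNA for phenylalanine at positions 577 to 647 of the mitochondrial genome, is not a coding gene and was named after its values were seen. It had 57.6 and 55.5 FPKM in E2 libraries, 35.9, 37.0 and 37.3 FPKM in BPA 0.25 nM libraries, 51.3, 50.2 and 55.8 FPKM in BPA 2500 nM libraries, and 28.98, 31.08 and 33.14 FPKM in DMSO libraries. E2 overlapped with the higher BPA dose and lay above the lower one, with log2 differences of 0.61 ± 0.0644 (SE) against 0.25 nM (adjusted p = 0.0126) and 0.11 against 2500 nM (interval -0.04 to 0.25). Its length of 71 bases makes an FPKM of this kind less certain than that of a long transcript, and its call was lost without BPA 0.25 nM replicate 1 or 2, at adjusted p of 0.0513 and 0.0655. ID2, an inhibitor of helix-loop-helix factors and a target of BMP signalling, did not pass. It had 48.4 and 47.2 FPKM in E2 libraries, 37.3 to 39.6 FPKM in BPA 0.25 nM libraries, 46.7 to 49.5 FPKM in BPA 2500 nM libraries and 35.9 to 37.6 FPKM in DMSO libraries, with a difference of 0.30 from 0.25 nM (adjusted p = 0.0942).

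**Figure D3:**
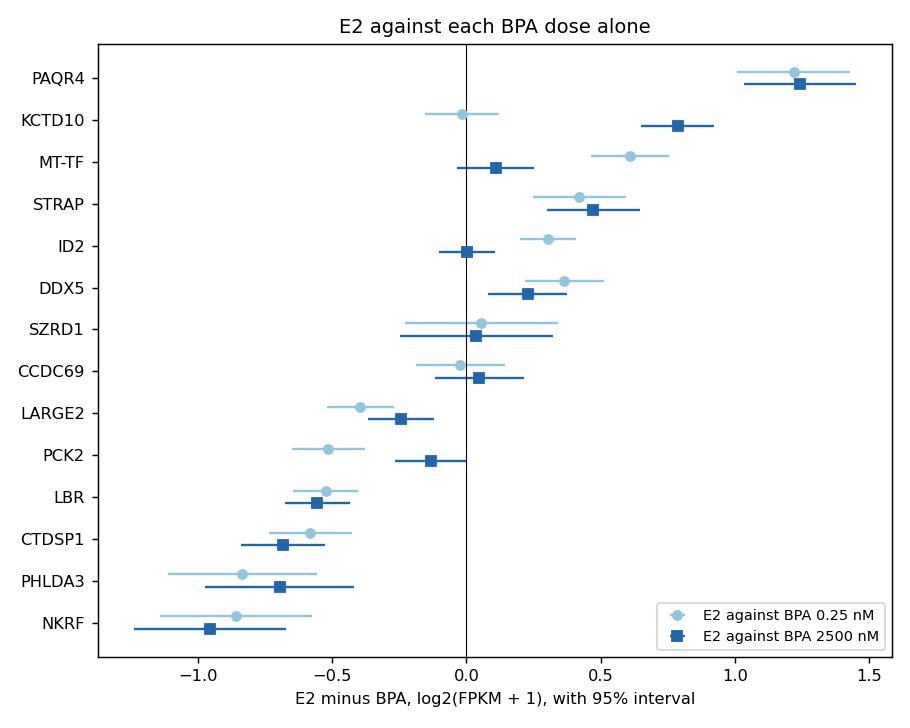
Log2 difference of FPKM + 1, E2 minus BPA, against each dose alone, for 14 named genes; points are fitted differences and bars 95% intervals, and the E2 libraries are shared. PAQR4, LBR, CTDSP1, PHLDA3 and NKRF lie at like distances from both doses, and KCTD10, MT-TF, ID2 and PCK2 do not. The gap between the distances is the difference between the doses, which passed for KCTD10 and MT-TF. For ID2 and PCK2 it did not pass, at limma adjusted p of 0.0504 and 0.0539.

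The number of calls against a single dose also moved with the libraries. Against 0.25 nM it was 215 without E2 replicate 1, 25 without E2 replicate 2, 10 without BPA 2500 nM replicate 1 or 3, and 2 without BPA 0.25 nM replicate 2. Against 2500 nM it was 57 without E2 replicate 1, 25 without E2 replicate 2, 9 without BPA 0.25 nM replicate 3 or BPA 2500 nM replicate 3, and 8 without DMSO replicate 3. The call of LBR against 0.25 nM was lost without BPA 0.25 nM replicate 1 or 2, at adjusted p of 0.0513 and 0.0594. That of CTDSP1 was lost against 0.25 nM without any of the libraries of that dose or BPA 2500 nM replicate 2, at 0.0513 to 0.109, and against 2500 nM without BPA 2500 nM replicate 2, at 0.0525. NKRF did not pass against either dose alone, with adjusted p of 0.0786 and 0.0526, and passed against 2500 nM without E2 replicate 1 or 2, at 0.00934 and 0.000474.

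The doses pooled here differed from each other at 8 loci, 0.0669% of those tested, with 2 higher at 2500 nM, 0.0167%, and 6 lower, 0.0502%; 937 loci, 7.84%, had an unadjusted p under 0.05. At these loci the place of E2 can be read on a scale on which 0 is the mean of BPA 0.25 nM and 1 that of BPA 2500 nM, on log2(FPKM + 1). The loci were chosen by the BPA libraries, so the places of E2 are a description with no test. KCTD10, at 0.02, CALCRL, at 0.03, and CAMK2N1, at 0.21, lay near the lower dose. COL3A1, at 0.37, and PDLIM3, at 0.50, lay between, and CCN1, at 0.79, NEAT1, at 0.96, and MT-TF, at 1.22, lay near or beyond the higher dose. E2 thus ranged from the lower dose to beyond the higher one.

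CALCRL, the receptor that binds calcitonin gene-related peptide or adrenomedullin according to its partner, had 6.24 and 6.57 FPKM in E2 libraries, 6.23 to 6.87 FPKM in BPA 0.25 nM libraries, 4.59 to 4.82 FPKM in BPA 2500 nM libraries and 7.16 to 7.34 FPKM in DMSO libraries. CAMK2N1, an inhibitor of calmodulin kinase II, had 4.78 and 5.04 FPKM in E2 libraries, 5.08 to 5.50 FPKM in BPA 0.25 nM libraries, 3.56 to 3.67 FPKM in BPA 2500 nM libraries and 5.48 to 6.33 FPKM in DMSO libraries. For both, E2 lay above every library of the higher dose. COL3A1, the chain of type III collagen, had 29.3 and 27.5 FPKM in E2 libraries, 30.4 to 33.0 FPKM in BPA 0.25 nM libraries, 23.0 to 23.8 FPKM in BPA 2500 nM libraries and 30.3 to 32.1 FPKM in DMSO libraries, and PDLIM3, a partner of α-actinin, had 2.99 and 2.91 FPKM in E2 libraries, 3.29 to 3.80 FPKM in BPA 0.25 nM libraries, 2.20 to 2.49 FPKM in BPA 2500 nM libraries and 3.39 to 3.61 FPKM in DMSO libraries. These E2 libraries fell into the gap between the doses.

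CCN1, a matrix-associated protein and target of YAP, had 32.5 and 32.3 FPKM in E2 libraries, 25.1 to 27.5 FPKM in BPA 0.25 nM libraries, 33.1 to 35.8 FPKM in BPA 2500 nM libraries and 26.7 to 27.3 FPKM in DMSO libraries. NEAT1, the long non-coding RNA that scaffolds paraspeckles, had 0.66 and 0.73 FPKM in E2 libraries, 1.56 to 1.82 FPKM in BPA 0.25 nM libraries, 0.59 to 0.71 FPKM in BPA 2500 nM libraries and 0.70 to 1.09 FPKM in DMSO libraries. For NEAT1 the lower BPA dose lay above all other libraries, and it was through the libraries of this dose alone that NEAT1 reached the filter, so its place among the loci called is tied to the filter. Of these differences between doses, that of KCTD10 was called in all 11 fits that left out 1 library each. The count of calls was 2 without BPA 0.25 nM replicate 3, BPA 2500 nM replicate 3 or either E2 library, 4 without BPA 0.25 nM replicate 2 or any DMSO library and 5 without BPA 0.25 nM replicate 1.

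**Figure D4:**
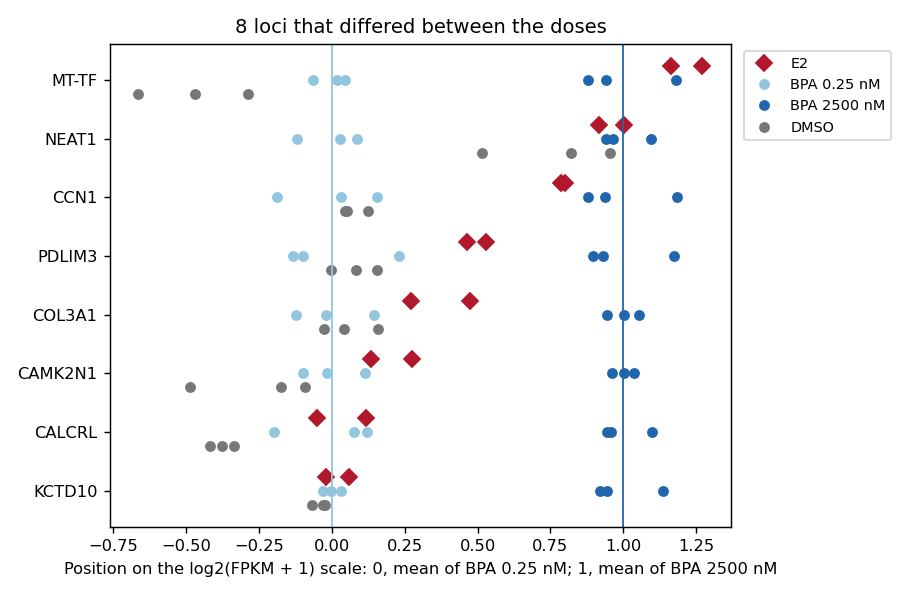
Place of each library on a scale from the mean of BPA 0.25 nM (0) to the mean of BPA 2500 nM (1), on log2(FPKM + 1), for the 8 loci that differed between the doses; diamonds are E2 libraries and circles the others. E2 lies from 0.02 for KCTD10 to 1.22 for MT-TF.

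The nuclear oestrogen receptors ESR1 and ESR2 were near 0 in E2 and BPA libraries. ESR1 had at most 0.01 FPKM in E2 and 0.02 FPKM in BPA libraries, and ESR2 at most 0.04 FPKM in E2 and 0.02 FPKM in BPA libraries. GPER1, the membrane receptor, had 3.05 and 1.39 FPKM in E2 and 1.72 to 2.5 FPKM in BPA libraries, so that the E2 libraries lay on either side of the BPA range; it overlaps C7orf50 on the other strand (log2 difference 0.03, interval -0.43 to 0.50). ESRRA, a nuclear receptor of the same family with no known oestrogen ligand, had 20.8 and 18.2 FPKM in E2 and 17.4 to 21.0 FPKM in BPA libraries, with a difference of 0.00 and an interval of -0.25 to 0.25. Both treatments exceeded the 12.3 to 16.9 FPKM of the DMSO libraries. PGR and TFF1 were not analysed here, and GREB1, a standard target of ESR1, had at most 0.07 FPKM in E2 and 0.11 FPKM in BPA libraries.

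The genes of 50 pathway lists give the wider picture. Of 1719 genes listed, 1225 passed the filter on their own locus, 291 were too low, 140 lay in loci joined with another gene and 63 had no locus. LBR, in the nuclear envelope list, and NKRF, in the NF-κB list, were the 2 members called against both doses, of 1225 tested. Over all 11950 loci 5 were called, 0.0418%. The lists were chosen with earlier results of these data known, so the count of members is a description. Without E2 replicate 1 the members called were 14, without replicate 2 they were 4, and without any 1 of 8 of the DMSO and BPA libraries 1 was called. Of the 48 lists with at least 5 members tested, medians ran from -0.17 to 0.07, beside 0.00 for all loci. The lowest was that of 10 replication histone genes, where the E2 replicates were far apart. Their median deviation from the BPA mean was 0.005 in E2 replicate 1 and -0.33 in replicate 2. In BPA libraries it was -0.10 to 0.32. By the median of the members, both E2 libraries lay above all 6 BPA libraries in 4 lists and below them in 5. In the other 39 neither held. Among these were the immediate early and NF-κB lists, where the E2 replicates lay beyond opposite ends of the BPA range.

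**Figure D5:**
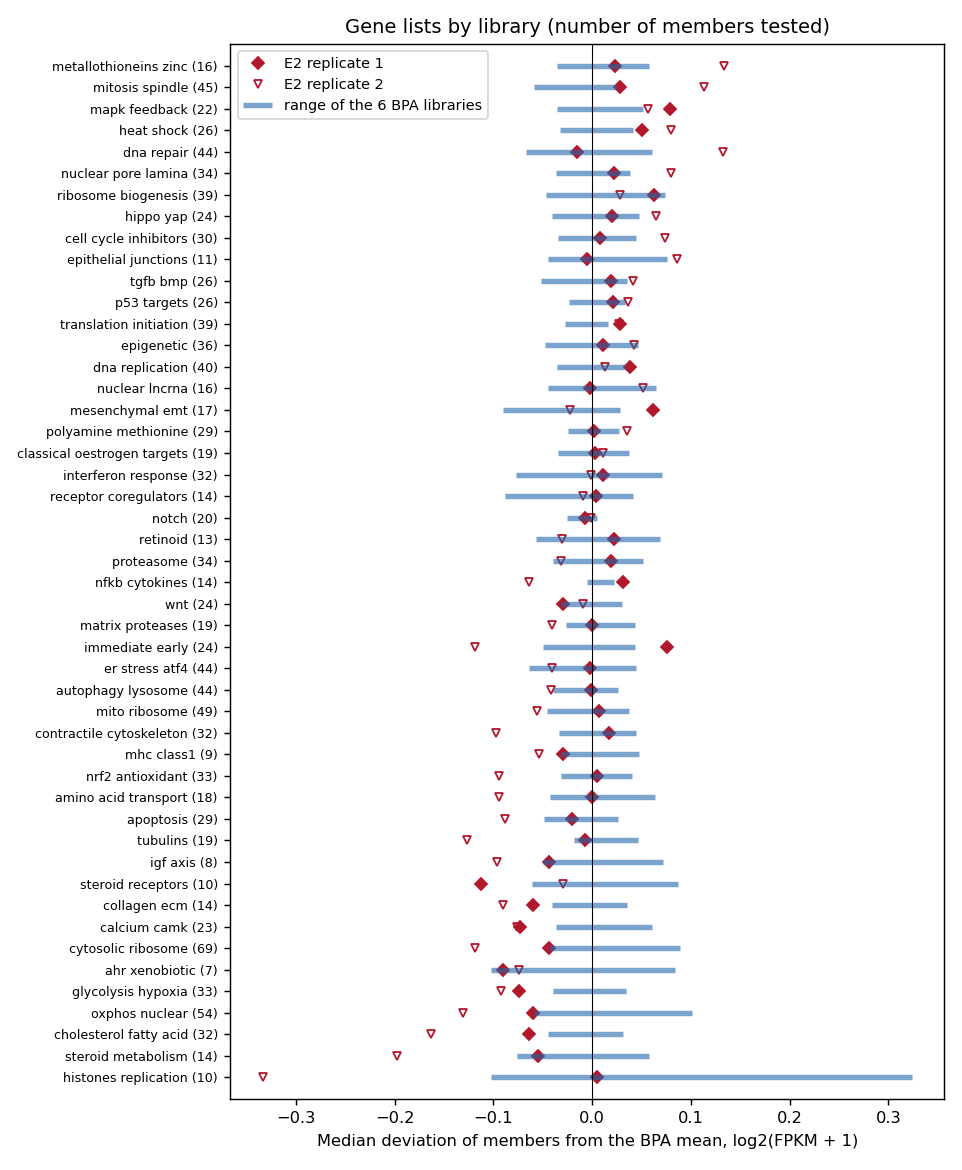
Median deviation of the members of each list from the BPA mean, in log2(FPKM + 1), for E2 replicate 1 (filled diamonds) and replicate 2 (open triangles), with the range of the 6 BPA libraries as bars; the number of members tested is in parentheses. In 39 lists the E2 libraries are neither both above nor both below the bar, and for immediate early and NF-κB genes they lie beyond opposite ends of it. For cholesterol and fatty acid genes the E2 replicates lie at -0.06 and -0.16, below the lowest BPA library at -0.04.

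Among lists on oestrogen action, no member passed. Of 19 tested classical oestrogen targets, 7 had a positive and 12 a negative difference, with a median of -0.02; 2 lay below all 6 BPA libraries, 10.5% beside 5.93% of all loci. Those were ADCY9, an adenylate cyclase, with 5.99 and 5.84 FPKM in E2 and 6.86 to 7.92 FPKM in BPA libraries (log2 difference -0.26, adjusted p = 0.348), and CELSR2, a cadherin of planar polarity, with 2.78 and 2.70 FPKM in E2 and 2.97 to 3.47 FPKM in BPA libraries (-0.18, adjusted p = 0.354). CCND1, the cyclin of G1 and a textbook oestrogen target, had 33.8 and 38.1 FPKM in E2 and 31.3 to 35.7 FPKM in BPA libraries. Of 14 receptor coregulators, 2 lay above all BPA libraries, 14.3% beside 5.31% of all loci, and NCOA1 had 4.12 and 4.42 FPKM in E2 and 3.52 to 3.98 FPKM in BPA libraries (0.13, adjusted p = 0.436).

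None of the genes of steroid metabolism passed. Of 14 tested, 12 had a negative difference and 3 lay below all BPA libraries, 21.4% beside 5.93% of all loci, with a median of -0.13 pooled, -0.20 against 0.25 nM and -0.07 against 2500 nM. HSD17B8, a dehydrogenase that can inactivate estradiol, had 2.54 and 2.67 FPKM in E2 libraries, 3.16 to 5.44 FPKM in BPA libraries and a mean of 4.42 FPKM in DMSO libraries (log2 difference -0.42, adjusted p = 0.351). HSD3B7, which acts in bile acid synthesis, had 23.0 and 19.9 FPKM in E2 and 22.8 to 26.5 FPKM in BPA libraries, where E2 replicate 1 overlapped with BPA (-0.18, adjusted p = 0.354). Of 7 aryl hydrocarbon receptor and xenobiotic genes none lay beyond the BPA libraries on either side. CYP1A1, the best-known target of that receptor, had 0.73 and 0.82 FPKM in E2 libraries, 1.21 to 1.31 FPKM in BPA 0.25 nM libraries and 0.78 to 0.93 FPKM in BPA 2500 nM libraries. E2 thus overlapped with the higher dose alone (-0.20, limma adjusted p = 0.406). CYP1A1 reached the filter through the BPA 0.25 nM libraries alone, so its distance from that dose is tied to the filter. CYP1B1, in a locus that also names RMDN2-AS1, had 1.35 and 1.64 FPKM in E2 and 1.33 to 1.68 FPKM in BPA libraries, and AHR itself at most 0.05 FPKM in either.

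The nuclear envelope list held LBR, which was called, and members that lay on the other side of BPA without a call. Of 34 tested, 21 had a positive difference, and 5 lay above and 2 below all 6 BPA libraries, 14.7% and 5.88%, beside 5.31% and 5.93% of all loci. LMNB1, the B-type lamin to which LBR binds, had 50.3 and 50.1 FPKM in E2 libraries, 39.5 to 46.9 FPKM in BPA libraries and a mean of 45.0 FPKM in DMSO libraries (log2 difference 0.22, adjusted p = 0.354). SEH1L, a nucleoporin, had 10.9 and 12.5 FPKM in E2 and 9.44 to 10.7 FPKM in BPA libraries (0.20, adjusted p = 0.354). TMPO, a lamina protein, had 55.3 and 68.8 FPKM in E2 and 49.4 to 54.2 FPKM in BPA libraries (0.24, adjusted p = 0.365). Of 14 NF-κB and cytokine genes only NKRF was called. NKRF alone lay below all BPA libraries, 7.14% of the list, a share near the 5.93% of all loci. RELA, the transactivating subunit, had 5.86 and 4.93 FPKM in E2 and 5.47 to 9.39 FPKM in BPA libraries (-0.25, adjusted p = 0.452).

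No gene of cell division or ribosome assembly passed, and their lists had medians above 0. Of 45 mitosis and spindle genes, 35 had a positive difference and 7 lay above all 6 BPA libraries, 15.6% beside 5.31% of all loci, and none below; the median was 0.06. MAD2L1, of the spindle checkpoint, had 28.1 and 31.1 FPKM in E2 and 24.1 to 27.4 FPKM in BPA libraries (log2 difference 0.18, adjusted p = 0.354), and NDC80, of the kinetochore, had 27.0 and 28.1 FPKM in E2 and 21.6 to 25.4 FPKM in BPA libraries (0.19, adjusted p = 0.370). The list median was 0.03 in E2 replicate 1 and 0.11 in replicate 2, and -0.06 to 0.02 in BPA libraries. Of 39 ribosome biogenesis genes, 29 had a positive difference and 5 lay above all BPA libraries, 12.8%. Their list median was 0.06 in E2 replicate 1 and 0.03 in replicate 2. It was -0.05 to -0.03 in BPA 0.25 nM and 0.004 to 0.07 in BPA 2500 nM libraries. E2 thus overlapped with the higher dose. The median difference was 0.11 against 0.25 nM and 0.03 against 2500 nM. WDR43, of the small subunit processome, had 28.0 and 30.1 FPKM in E2, 24.2 to 26.9 FPKM in BPA and a mean of 22.6 FPKM in DMSO libraries (0.19, adjusted p = 0.348). Of 40 DNA replication genes, 22 had a positive and 18 a negative difference. Above all BPA libraries lay 2 and below them 1, 5% and 2.5%, no more than the 5.31% and 5.93% of all loci. RFC3, of the clamp loader, had 22.73 and 24.03 FPKM in E2 and 19.3 to 21.2 FPKM in BPA libraries (0.18, limma adjusted p = 0.354).

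No ribosomal protein or respiratory gene passed, and these lists had medians below 0. Of 69 cytosolic ribosomal protein genes, 53 had a negative difference, 14 lay below and 2 above all BPA libraries, 20.3% and 2.90%, beside 5.93% below and 5.31% above over all loci; the median was -0.08. Of 54 nuclear genes of oxidative phosphorylation, 41 had a negative difference and 9 lay below all BPA libraries, 16.7% beside 5.93% of all loci, none above. UQCRC1, of complex III, had 58.9 and 60.3 FPKM in E2 and 66.6 to 71.9 FPKM in BPA libraries (-0.20, adjusted p = 0.337), and NDUFA2, of complex I, had 28.0 and 32.6 FPKM in E2 and 35.0 to 41.4 FPKM in BPA libraries (-0.31, adjusted p = 0.354). The list medians in E2 replicates 1 and 2 were -0.04 and -0.12 for ribosomal proteins, against -0.04 to 0.09 in the BPA libraries. For oxidative phosphorylation they were -0.06 and -0.13, against -0.06 to 0.10. Replicate 2 lay farther down than replicate 1 in both, and replicate 1 was at the edge of the BPA range or within it. The DMSO medians ran from -0.15 to -0.03 for ribosomal proteins and from -0.14 to -0.05 for oxidative phosphorylation. Both E2 replicates thus lay within the DMSO range in both lists.

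No gene of lipid or carbohydrate metabolism passed either. Of 32 cholesterol and fatty acid genes, 23 had a negative difference and 6 lay below all BPA libraries, 18.8% beside 5.93% of all loci, none above, with a median of -0.10. MVD, of the mevalonate pathway, had 7.59 and 7.29 FPKM in E2 and 8.17 to 10.2 FPKM in BPA libraries (log2 difference -0.25, adjusted p = 0.348). FASN, the fatty acid synthase, had 47.1 and 41.9 FPKM in E2 libraries, 48.7 to 51.0 FPKM in BPA libraries and a mean of 45.7 FPKM in DMSO libraries (-0.16, adjusted p = 0.354). Of 33 glycolysis and hypoxia genes, 25 had a negative difference and 4 lay below, 12.1%. ALDOC, a brain-type aldolase, was not among the 4. It had 20.8 and 16.6 FPKM in E2 and 20.7 to 26.6 FPKM in BPA libraries, where E2 replicate 1 overlapped with BPA (-0.34, limma adjusted p = 0.354).

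Stress and signalling genes did not pass against both doses. Over all loci, 5.31% lay above and 5.93% below all BPA libraries. Of 44 genes of the ER stress and ATF4 response, 5 lay below and 2 above, 11.4% and 4.55%, and PCK2 was called against 0.25 nM alone. CANX, a chaperone of the ER, had 78.3 and 81.7 FPKM in E2 and 68.2 to 74.0 FPKM in BPA libraries (log2 difference 0.17, adjusted p = 0.354). Of 26 heat shock genes, 3 lay above, 11.5%, and none below; DNAJB1, an HSP70 partner, had 32.5 and 30.8 FPKM in E2 and 31.9 to 44.2 FPKM in BPA libraries (-0.32, adjusted p = 0.354) while the median of its list was 0.06. Of 22 genes of MAPK feedback, 18 had a positive difference and 3 lay above, 13.6%; SPRY2, an inhibitor of receptor tyrosine kinase signalling, had 31.6 and 30.4 FPKM in E2 libraries, 25.2 to 29.6 FPKM in BPA libraries and a mean of 23.97 FPKM in DMSO libraries (0.16, adjusted p = 0.354). Of 24 Hippo pathway genes, 2 lay above and 1 below, 8.33% and 4.17%, and ANKRD1, a target of YAP, had 458 and 474 FPKM in E2 and 402 to 449 FPKM in BPA libraries (0.14, adjusted p = 0.354). Of 29 apoptosis genes, 1 lay above and 2 below all BPA libraries, 3.45% and 6.90%, shares near those of all loci. MCL1, an inhibitor of apoptosis, had 42.6 and 47.2 FPKM in E2 and 32.1 to 38.8 FPKM in BPA libraries (0.37, adjusted p = 0.354).

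Matrix and calcium genes had medians below 0, of -0.07 and -0.06, and none passed against both doses. Of 14 collagen and matrix genes, 10 had a negative difference and 5 lay below all BPA libraries, 35.7% beside 5.93% of all loci, while 1 lay above, 7.14% beside 5.31%. COL6A2, of type VI collagen, had 2.49 and 2.26 FPKM in E2 and 2.74 to 3.12 FPKM in BPA libraries (log2 difference -0.22, adjusted p = 0.354), and LAMB2, a laminin chain, had 28.7 and 26.2 FPKM in E2 and 29.7 to 32.1 FPKM in BPA libraries (-0.17, adjusted p = 0.354). Of 23 calcium and calmodulin genes, 3 lay below, 13.04%, and 1 above, 4.35%. ITPR3, a calcium channel of the ER, had 5.04 and 4.99 FPKM in E2 libraries, 5.98 to 6.55 FPKM in BPA libraries and a mean of 6.03 FPKM in DMSO libraries (-0.25, adjusted p = 0.317).

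Genes that differ between treated and DMSO libraries were also read for a difference between the treatments. SZRD1, a protein with an RNA-binding SUZ domain, had 34.8 and 30.7 FPKM in E2 libraries, 30.0 to 33.7 FPKM in BPA libraries and 13.3 to 18.8 FPKM in DMSO libraries. CCDC69, a coiled-coil protein of the central spindle, had 2.23 and 2.15 FPKM in E2 libraries, 1.89 to 2.32 FPKM in BPA libraries and 0.81 to 1.04 FPKM in DMSO libraries. For both, E2 and BPA overlapped and lay above all DMSO libraries. The difference between E2 and BPA was 0.05 for SZRD1, with a 95% interval of -0.21 to 0.30, and 0.01 for CCDC69, with an interval of -0.14 to 0.16.

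AMOTL2, a scaffold of the Hippo pathway in a locus shared with RPL39P5, had 7 and 6.75 FPKM in E2 libraries, 5.16 to 6.72 FPKM in BPA 0.25 nM libraries, 8.13 to 8.65 FPKM in BPA 2500 nM libraries and 4.34 to 4.59 FPKM in DMSO libraries, so that E2 lay between the doses (adjusted p = 0.920 against both). ODC1, the first enzyme of polyamine synthesis, had 95.8 and 95.6 FPKM in E2 libraries, 85.2 to 85.6 FPKM in BPA 0.25 nM libraries, 95.9 to 99.3 FPKM in BPA 2500 nM libraries and 72.8 to 75.8 FPKM in DMSO libraries; E2 was just under the range of the higher dose. TXNIP, an inhibitor of thioredoxin and of glucose uptake, had 6.44 and 6.38 FPKM in E2 libraries, 6.18 to 7.46 FPKM in BPA 0.25 nM libraries, 4.74 to 5.44 FPKM in BPA 2500 nM libraries and 8.87 to 10.1 FPKM in DMSO libraries, and overlapped with the lower dose. For ODC1 and TXNIP the pooled adjusted p was 0.453 and 0.523.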

How the data were processed

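Each library is described by a table of FPKM per locus that the authors deposited; per the submitters' processing notes the tools named are HISAT, UMI-tools, StringTie and edgeR, with no versions, and the build named is hg19. Of 14123 loci with an Ensembl identifier found in GENCODE 29, 74.8% had the same start and end in GRCh38, so coordinates are given as GRCh38. Raw counts were not analysed here, the depth of the libraries is unknown, and no interval for counting error can be given. FPKM totals were 206719 to 213663 per library. The sources do not say whether strand was used.

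Loci that reached an FPKM of 1 in 2 or more of the 8 E2 and BPA libraries were tested as log2(FPKM + 1) with limma 3.58.1 (R 4.3.3; statmod 1.5.0), with 1 mean per group over 11 libraries, trend and robust moderation, 7 residual degrees of freedom, two-sided tests and Benjamini-Hochberg adjustment over 11950 loci. E2 was set against the mean of the 2 BPA group means, against each dose, and the doses against each other. The script was tested on simulated data. Exact permutation used Python 3.11.15 (numpy 2.4.6, pandas 2.3.3), and figures matplotlib 3.10.9.

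Named genes are called loci naming 1 coding gene with both E2 libraries beyond the BPA libraries, topped up by p to 5 a direction (3 for single doses), called list members or up to 4 list members of smallest p, and a panel of oestrogen-related and treatment-related genes; loci called between doses, PKMYT1, UBE2A and C7orf50 were added after their values were seen. The members and lists were chosen with earlier results of these data known. Promoters come from RefSeq (GRCh38.p14). Alternatives were a pseudocount of 0.1, no filter, a mean FPKM of at least 5, rescaling by the median of ratios, the 8 libraries alone, no trend or robust setting, 1 mean for all BPA libraries, a replicate block, and leaving out each library. E2 replicate 3 was not analysed here.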

Additional observations from a re-analysis of the deposited data

Results flagged for a closer look

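STRAP had 68.35 FPKM in BPA 0.25 nM replicate 3, apart from the other 5 BPA libraries. CCDC69 had 1.89 FPKM in BPA 2500 nM replicate 3, the lowest of the 6 BPA libraries and apart from them. Both gaps exceed Dixon's critical share of the range, 0.625 for 6 libraries. Of 29 values looked at in the BPA libraries these were the 2 so marked, and chance marks about 1 in 20.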

How the results depend on the processing

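PAQR4 and LBR were called against both doses in all 19 alternatives, at adjusted p up to 0.00545 and 0.0294. NKRF lost its call with a pseudocount of 0.1 (0.0595) and with the 8 E2 and BPA libraries alone (0.161). Against 0.25 nM, CTDSP1 and PCK2 also lost their calls with the 8 libraries alone (0.0630 and 0.0923). A mean FPKM of at least 5 removes NKRF and the locus opposite YWHAE from the test. Calls against both doses, 5 in the report, were 18 with no filter, 3 at a mean FPKM of at least 5 and 4 to 157 with 1 library left out. Against 0.25 nM, 6 became 24 with no filter and 2 to 215 with 1 library left out. Against 2500 nM, 5 became 18 with no filter, 8 with the 8 libraries alone and 4 to 57 with 1 library left out. Between doses, 8 became 1 with the 8 libraries alone and 2 to 10 with 1 library left out. List members called, 2 in the report, were 1 with a pseudocount of 0.1, at a mean FPKM of at least 5 and with the 8 libraries alone, and 1 to 14 with 1 library left out. The difference in mitochondrial share ran from -0.736 to 0.999 percentage points and was -0.736 without E2 replicate 1. The cause of these shifts was not tested, except that the no-filter and mean-FPKM settings change the loci tested.

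Replicate numbers did not pair the libraries: 1 of 15 same-numbered pairs had a correlation of deviations above 0.1, from -0.120 to 0.168. With the replicate block the calls were 3 against both doses, 3 against 0.25 nM and 3 between doses, 1 list member was called. The adjusted p under the block was then 0.0693 for CTDSP1 and 0.202 for NKRF against both doses, 0.0553 for LBR, 0.124 for CTDSP1 and 0.121 for PCK2 against 0.25 nM, and 0.0660 for CTDSP1 against 2500 nM, and none of these passed; the count against 2500 nM stayed within 1.5 times. With 2 E2 libraries 0.150 apart, small differences were not detectable; when 1 is left out, the lone library is assumed to vary like the other groups.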
